A study of Homo sapiens with 6 samples.

Results

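The ribosomal RNA (rRNA) repeat on the unplaced scaffold chrUn_gl000220, which carries the precursor gene RNA45S5, was examined in RNA recovered with an anti-RBM8A antibody. Every listed peak on this scaffold was taken, which gave 29 of the 5437 peaks in the 3 lists, with 11, 15 and 3 in replicates 1, 2 and 3 (9.67 ± 6.11, SD, n = 3). The study profiled AGS, a human gastric adenocarcinoma cell line labelled as wild type and left untreated, by RNA immunoprecipitation and sequencing. It has 3 immunoprecipitates with the antibody and 3 input samples, all with the same batch label, and only the immunoprecipitates have peak lists here. None of the samples was precipitated with a control antibody, and the labels do not say whether replicates were separate cultures, and p-values measure only the spread between these samples, which may be technical. The lists carry no genes, so the cell type was not checked against markers.

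In human cells RNA polymerase I transcribes the 45S precursor in the nucleolus, from genes arranged in tandem on the short arms of the acrocentric chromosomes. The transcript runs from the 5′ external spacer through 18S, internal spacer 1, 5.8S, internal spacer 2 and 28S to the 3′ external spacer, and the spacers are cut away as the rRNAs mature. The 18S rRNA belongs to the small ribosomal subunit, and 5.8S and 28S belong to the large one. An intergenic spacer separates each transcribed stretch from the next. RBM8A (Y14) belongs to the core of the exon junction complex, a protein assembly placed on messenger RNA during splicing, whereas the 45S precursor is matured by cleavage. rRNA makes up most of the RNA in a cell, and reads from all copies of the repeat can align to the few copies in a genome assembly.

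Peaks on the scaffold were of 2 kinds, set apart by position and by depth (18 peaks upstream of the 45S gene and 11 beyond its start, called peaks of the repeat). Flanking sequence here means all of the scaffold before the 45S start. No source used here places the left end of the repeat, so part of this sequence may belong to an intergenic spacer. The 11 peaks of the repeat had 16868 to 66977 fragments at the summit and a fold enrichment of 1.02 to 1.86. Those of the flanking sequence had 4 to 106 fragments and a fold of 2.65 to 37.7. Fold enrichment is the authors' own value for each peak and compares the pileup at the summit with an expected level. Pileup, the number of fragments stacked at the summit, was worked back from the fold and p-value that the authors deposited, as was the expected level. The sources do not say which sample gave that level.

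**Figure D1:**
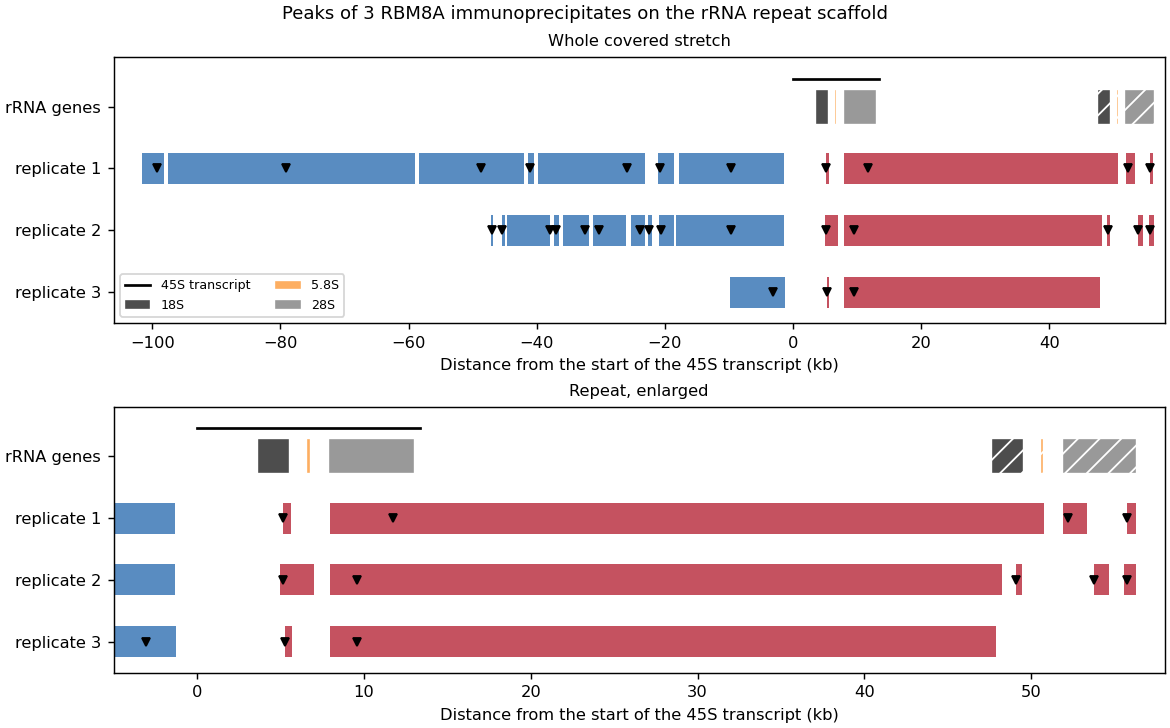
Peaks of replicates 1, 2 and 3 (bars) and their summits (triangles) by distance in kb from the start of the 45S transcript, with 18S, 5.8S and 28S above; hatched genes belong to the second, partial unit. Red bars are the deep peaks of the repeat and blue bars those of the flanking sequence. All 3 lists leave the start of the 45S transcript uncovered and have a peak of at least 39930 bp that starts in 28S and runs through the intergenic spacer.

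Peak positions are given as in the lists, counted from 1, without a strand. The rRNA genes were placed from the RefSeq table for GRCh38.p14, in which the precursor is named RNA45SN5 with RNA45S5 as a synonym. The sequence names of the lists are those of hg19, and the submitters' notes name hg38. This scaffold is the same sequence record in both assemblies, which makes the placement possible. The table gives the sequence only as unknown, so the placement also rests on RNA45S5 being the precursor gene of this scaffold, and gene coordinates are not printed. The 45S transcript is 13357 bases long, with an 18S of 1869, a 5.8S of 157 and a 28S of 5070 bases. A second, partial unit lies 43972 bp downstream, where the table lists the 18S and 5.8S copies as the pseudogenes RNA18SP3 and RNA5-8SP8. The 28S copy and the 5′ external spacer of that unit are not in the table and were placed here by the same shift. That placement also sets the end of the intergenic spacer.

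Within the 18S gene each replicate had 1 peak, and all 3 began in the last part of the gene. In replicate 1 the peak ran from 110554 to 111040, in replicate 2 from 110399 to 112429 and in replicate 3 from 110689 to 111085. Their starts thus lay at bases 1477, 1322 and 1612 of 18S, within 290 bp of each other. The peaks of replicates 1 and 3 ended 94 and 139 bases into internal spacer 1, which links 18S to 5.8S. That of replicate 2 continued through all of this spacer and 5.8S and ended 249 bases into internal spacer 2. The first 1321 bases of 18S were in no peak of any replicate.

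Summits in 18S were close in 2 of the replicates. They lay at 110559, 110580 and 110689, or bases 1482, 1503 and 1612 of the gene, so replicates 1 and 2 were 21 bp apart and replicate 3 lay 109 bp from replicate 2. In replicate 3 the summit was the first base of its peak, and in replicate 1 it was 5 bases after the first. The pileup there was 52070, 63408 and 51646 fragments in replicates 1, 2 and 3, against expected levels of 49967, 49721 and 50720. Expected levels of the 3 replicates were thus near each other, at 50136 ± 521 (SD, n = 3), and replicate 2 had the highest pileup. These counts are of a different base in each replicate, and library depth is unknown, so they do not rank the replicates. Its excess over the expected level was 27.5%, compared with 4.21% in replicate 1 and 1.83% in replicate 3. The fold was 1.04, 1.28 and 1.02 in replicates 1, 2 and 3. The mean excess of 11.2% was smaller than its spread (14.2, SD, n = 3).

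The 28S gene held the start and the summit of the widest peak of the repeat in every replicate. In replicate 1 it ran from 113381 to 156182, in replicate 2 from 113365 to 153666 and in replicate 3 from 113408 to 153337, with widths of 42802, 40302 and 39930 bp. Their starts fell at bases 34, 18 and 61 of 28S, a range of 43 bp, so that the left edge of the peak was at the left end of the gene in each replicate. The right edge varied more. In replicates 2 and 3 it lay 617 and 288 bases into the 18S copy of the second unit, and in replicate 1 it lay 30 bases past the 5.8S copy. Between these edges the 28S gene was covered to 99.3%, 99.7% and 98.8%, and the 3′ external spacer, the intergenic spacer of 30615 bp and the 5′ external spacer of the second unit were covered to 100% in each.

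The deepest pileups of each list were the summits in 28S. The summit had 65199 fragments in replicate 1, 66965 in replicate 2 and 66977 in replicate 3. These pileups differed little between replicates (66380 ± 1023, SD, n = 3). Expected levels differed more, at 35081, 50348 and 56000 fragments, with replicate 1 the lowest. The fold was accordingly 1.86 in replicate 1, 1.33 in replicate 2 and 1.20 in replicate 3 (1.46 ± 0.350, SD, n = 3). In each of the 3 replicates this fold exceeded that of the 18S peak, and the difference was not tested. The summit lay at base 3837 of 28S in replicate 1, and at bases 1667 and 1666 in replicates 2 and 3. The summits of replicates 2 and 3 were thus 1 bp apart, at 115014 and 115013, while that of replicate 1 lay at 117184. The pileup, expected level and fold of replicate 1 therefore belong to another base than those of replicates 2 and 3. The means and SDs above join these positions and do not compare the replicates at the same base, or at a known library depth. As the caller reports fold and p-value at the position of the highest pileup, the values of these wide peaks are those of a base in 28S. The lists give no value for the spacer that makes up most of their width.

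**Figure D2:**
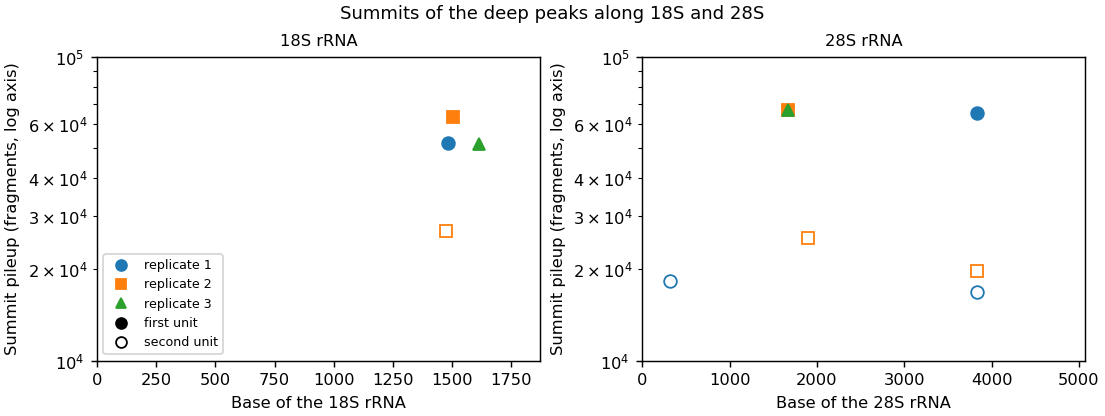
Summit pileup in fragments (log axis) against the base of 18S (left) and 28S (right) at which the summit lies, with filled symbols for the first unit and open symbols for the second. In 28S, replicates 2 and 3 coincide at bases 1667 and 1666, and the first-unit summit of replicate 1 at base 3837 lies above the second-unit summits at bases 3835 and 3834.

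Further deep peaks lay in the second unit, 2 in replicate 1, 3 in replicate 2 and 0 in replicate 3. Their summits held 16868 to 26750 fragments, fewer than the 51646 to 66977 of the 6 peaks in the first unit, and their folds were 1.07 to 1.24. Expected levels were lower as well, at 14698 to 23797 against 35081 to 56000 fragments. Replicate 2 had a peak from 154505 to 154885 in the 18S copy, with a pileup of 26750, an expected level of 23797 and a fold of 1.12. In the 28S copy, replicate 1 had a peak from 157338 to 158758 with a pileup of 18249 and a fold of 1.24. Replicate 2 had one from 159198 to 160113 with a pileup of 25443 and a fold of 1.14. Near the end of the covered stretch, replicate 1 had a peak from 161143 to 161685 and replicate 2 one from 160967 to 161703. These had pileups of 16868 and 19751, expected levels of 15707 and 16770, and folds of 1.07 and 1.18.

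Moved back by 43972 bp, several edges and summits of the second unit fell within 31 bp of edges and summits in the first. The summits at 161154 in replicate 1 and 161153 in replicate 2 lay 2 and 3 bp from the position of the first-unit summit of replicate 1 in 28S. The second-unit summit of replicate 2 in 18S, at 154521, lay 10 bp from the first-unit summit of replicate 1 and 31 bp from that of replicate 2. Some of these summits lay close to the start of their peak: 154521 to 154505 in replicate 2 and 161154 to 161143 in replicate 1. For such peaks a match of summits is not separate from a match of edges. The summit at 161153 in replicate 2 lay further from its start, 160967. The start at 157338 in replicate 1 lay 1 bp from the 28S start of replicate 2 and 15 bp from that of replicate 1 itself. Not every peak had such a partner. The summit of replicate 1 at 157639, base 320 of the 28S copy, lay 1346 bp from the nearest other summit in 28S, that of replicate 3. The summit of replicate 2 at 159212 lay 226 bp from its own first-unit summit. Reads that align to both copies cannot be told apart, and no source used here says how they were assigned, so the depth of a unit is uncertain.

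No peak of any replicate covered the beginning of the 45S transcript. The stretch from 104139 to 110398 was free of peaks in all 3 lists, a length of 6260 bp. It holds the last 1285 bases before the 45S start, the whole 5′ external spacer of 3654 bases and the first 1321 bases of 18S. The 5′ external spacer of the second unit, as placed by the shift, was covered to 100% in all 3 replicates by the wide peak that starts in 28S. The 2 copies of this spacer thus differed in coverage in every list. The values of the wide peak are those of a base in 28S, so neither copy has a value of its own. A second stretch without peaks, 935 bp long, reached from internal spacer 2 to base 17 of 28S. The 5.8S gene was covered in replicate 2 alone, and the 5.8S copy of the second unit in replicate 1 alone. A stretch without a peak may still hold many fragments, since the lists record only where the pileup passed the caller's threshold.

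The flanking sequence upstream of the 45S gene contributed 7 peaks to the list of replicate 1, 10 to that of replicate 2 and 1 to that of replicate 3. They covered 90.0% of it in replicate 1, 37.4% in replicate 2 and 8.06% in replicate 3, so the replicates differed widely here. Covered sequence reached back to 3765 in replicate 1, to 58251 in replicate 2 and to 95643 in replicate 3. In replicates 1 and 2 the peaks followed each other closely, with median gaps of 684.5 and 661 bp. Excluding the peak nearest the gene, the summits held 4 to 14 fragments in replicate 1 and 5 to 9 in replicate 2, near the median of 6 over all peaks of each list. The exact 95% Poisson interval of a pileup of 4 is 1.09 to 10.2, and that of a pileup of 14 is 7.65 to 23.5. These intervals cover counting error only, since sequenced fragments carry no molecular identifiers and may be copies of each other. The folds of these peaks were 2.65 to 4.33 in replicate 1 and 3.68 to 5.14 in replicate 2, and the median fold over all peaks was 4.15 and 4.16.

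In 1 region found in replicates 1 and 2, the peaks lay close in both edges and in depth. They ran from 84436 to 86847 and from 84504 to 86873, with summits 104 bp apart, pileups of 8 and 6 and folds of 3.61 and 3.68. A wider region, from 47061 to 82401, joined 3 peaks of replicate 1 and 7 of replicate 2. In replicate 1 these had widths of 16335, 944 and 16739 bp and pileups of 8, 5 and 14 fragments. In replicate 2 the 7 peaks were 370 to 6690 bp wide with pileups of 5 to 9, and they began at 58251, so the left part of the region was covered in replicate 1 alone. Of the remaining flanking peaks, 2 were found in replicate 1 alone, 1 of them at 3765 to 7278 with a fold of 3.52 and the other at 7911 to 46412 with 4.33. The last, from 82774 to 83348 with a fold of 4.07, was found in replicate 2 alone.

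The flanking peak nearest the 45S gene was the strongest of the scaffold by fold and was found in all 3 replicates. In replicate 1 it ran from 87620 to 104089, in replicate 2 from 87227 to 104101 and in replicate 3 from 95643 to 104138. The right edges lay within 49 bp of each other, 1335, 1323 and 1286 bases before the start of the 45S transcript. The left edges spread over 8416 bp, as the peak of replicate 3 was the narrowest. At the summits 39, 26 and 106 fragments were stacked (95% Poisson intervals 27.7 to 53.3, 17.0 to 38.1 and 86.8 to 128). Expected levels were alike, at 2.11, 2.33 and 1.84 fragments, and replicate 3 stood above the other 2 in pileup, with library depth unknown. The summits of replicates 1 and 2 lay 5 bp apart, at 95810 and 95815, or 9614 and 9609 bases before the 45S start. That of replicate 3 lay at 102364, only 3060 bases before it. The high fold of replicate 3, 37.7, therefore belongs to another position than those of replicates 1 and 2, 12.8 and 8.11. By fold this peak ranked 4 of 1480, 54 of 2155 and 2 of 1802 in its list.

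**Figure D3:**
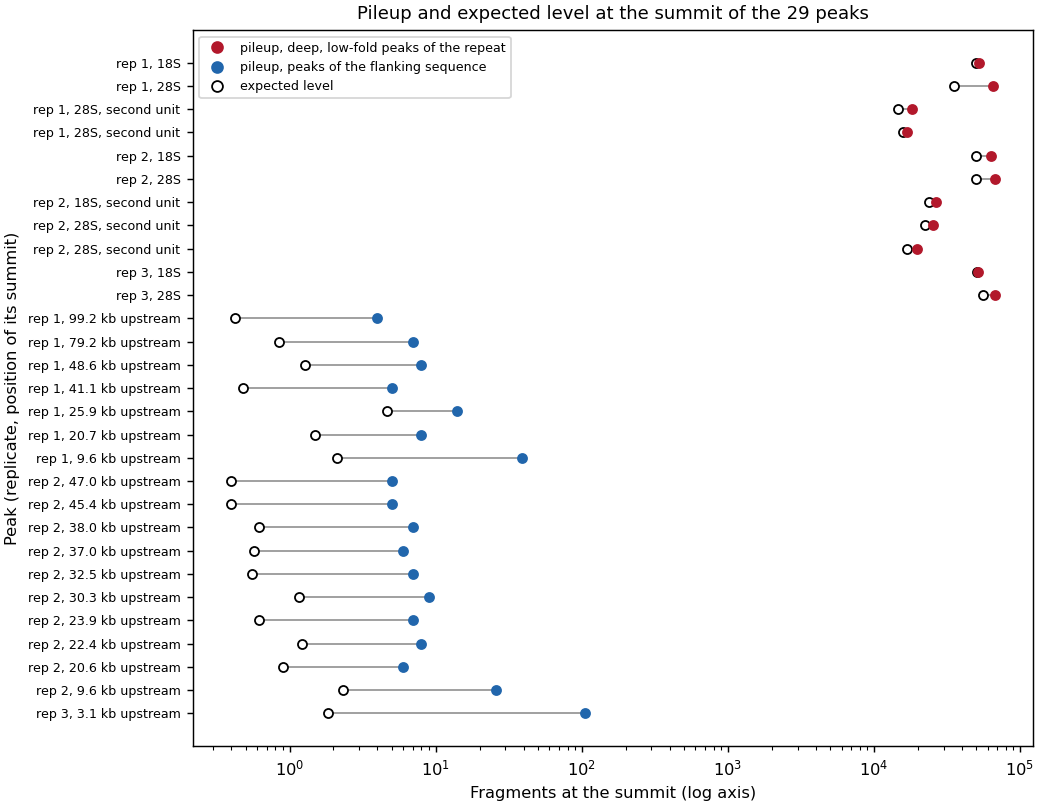
Pileup (filled) and expected level (open) at the summit of each of the 29 peaks, in fragments on a log axis, with the replicate and the position of the summit. In the 11 deep peaks (red) the 2 values lie close together between 14698 and 66977 fragments, and in the 18 flanking peaks (blue) pileups of 4 to 106 stand well clear of expected levels of 0.400 to 4.65.

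The deep peaks and the flanking peaks differed in each replicate in pileup, expected level and fold. Because the deep class was formed from regions with a pileup above 400, its pileup is a description. In replicate 1 the median pileup was 35160 fragments in deep and 8 in flanking peaks. These medians were 26750 and 7 in replicate 2, and 59312 and 106 in replicate 3. On the log2 scale, medians of the expected level were higher in deep peaks by 14.7 ± 0.535 (SD, n = 3). Deep peaks had median folds of 1.16, 1.18 and 1.11 in replicates 1, 2 and 3 and flanking peaks 3.97, 4.53 and 37.7, a log2 difference of -2.94 ± 1.87 (SD, n = 3). Replicate 3 compares 2 deep peaks with 1 flanking peak. Without it the log2 difference in fold was -1.86. Fold and expected level are of the same summits as the pileup that formed the classes, so their differences are descriptions too, with no test.

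Deep peaks were of 2 widths. The peak that starts in 28S was at least 39930 bp wide, and the other deep peaks were 381 to 2031 bp wide. The median width of deep peaks was 982, 916 and 20164 bp in replicates 1, 2 and 3, and that of flanking peaks was 16335, 2294 and 8496 bp. The direction is therefore not the same in every replicate by plain medians. With widths on the log2 scale, the difference of medians was below 0 in each (-2.21 ± 1.74, SD, n = 3, two-sided exact sign-flip permutation p = 0.25, the smallest that 3 replicates can give). It turned to 0.86 when peaks of the second unit were counted with the flanking sequence. A width of at least 10 kb was reached by 5 of 11, 2 of 15 and 1 of 3 peaks of the scaffold, against 11.2%, 8.12% and 9.05% of all peaks in the lists.

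Set against the rest of each list, the deep peaks had low folds, and most of them had high significance. The lowest deep pileup of a list was 89.7, 78.1 and 217 times the highest pileup on any other sequence, which was 188, 253 and 238 fragments. The highest expected level elsewhere was 93.9, 110 and 103 fragments. A fold under 1.5 was given to 3 of 4 deep peaks in replicate 1, 5 of 5 in replicate 2 and 2 of 2 in replicate 3, and such a fold was found in 0.270%, 0.325% and 0.111% of all peaks. The 18S peak had the lowest fold of its list in replicates 1 and 3. The lowest fold on other sequences was 1.46, 1.38 and 1.60. By −log10 q, a measure in which larger values are more significant, the 28S peak ranked first in every list, with 4467, 1075 and 437. The highest value elsewhere was 137, 217 and 189.

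A −log10 q of at least 5 was reached by 4 of 4, 5 of 5 and 1 of 2 deep peaks in replicates 1, 2 and 3, and by 1 of 7, 1 of 10 and 1 of 1 flanking peaks. Over all peaks of the lists the shares were 13.4%, 15.6% and 16.9%. The deep peak that did not reach it was the 18S peak of replicate 3, with 2.05. No deep peak came to a fold of 5, while 1, 2 and 1 flanking peaks did, against 16.2%, 26.7% and 20.9% of all peaks. The fold that a summit needs to be listed falls with its expected level. At the lowest expected level of each list, 0.422, 0.400 and 0.374 fragments, the lowest listed −log10 p needs 4 fragments, or a fold of 3.52, 3.57 and 3.64. At the expected level of the 18S summit it needs an excess of only 1.62%, 1.62% and 1.60%. The Poisson interval of a deep pileup is correspondingly narrow, 51202 to 52093 for the 51646 fragments of the 18S summit of replicate 3, and it does not include the spread between libraries.

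**Figure D4:**
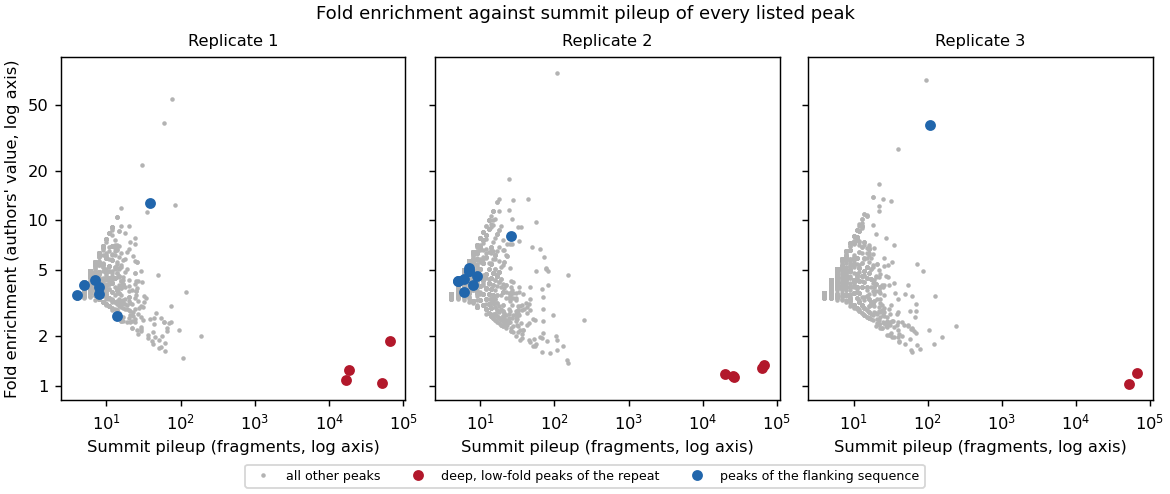
Fold enrichment against summit pileup in fragments (both log axes) for every listed peak of replicates 1, 2 and 3, with deep peaks of the repeat in red, flanking peaks in blue and all other peaks in grey. The red points lie alone at the right, at folds of 1.02 to 1.86, and most blue points lie among the grey ones.

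Joined by overlap, the 29 peaks formed 11 regions: 3 with peaks of all 3 replicates, 3 with peaks of 2 and 5 with peaks of 1. Those of all 3 replicates were the flanking region from 87227 to 104138, the 18S region from 110399 to 112429 and the region from 113365 to 156182 that starts in 28S. All 3 had a base covered in every list, and in 0 of them did the summits of all 3 replicates lie within 100 bp of each other. The summits of 2 replicates did so in each, replicates 1 and 2 in the flanking region and in 18S, and replicates 2 and 3 in 28S.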

How the data were processed

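Peak lists of 3 immunoprecipitates were used; the inputs were not analysed here. The submitters' processing notes name MACS2, HISAT2, SAMtools, GATK and FastQC, and hg38. No source used here gives their settings or the handling of repeated and multiply aligned reads. The deposited lists, 1 per replicate, give a fold enrichment (a ratio), and −log10 of its p-value and of its q-value for each peak. Library depth is unknown. MACS2 adds 1 to pileup and expected level before taking the fold and computes a Poisson p-value. The whole pileup up to 400 that gave the deposited −log10 p was sought (within 0.0005), and the 11 deeper peaks were solved by bisection. The fold's 5 decimals fix these to within 28 fragments. On simulated data, 100% of 200 shallow pileups were recovered exactly, and the largest error of 40 deep ones was 0.01%. The simulated deep folds did not span the lowest deep fold of the lists, 1.02, or the highest, 1.86. Simulated shallow pileups did not reach the 106 fragments of the flanking peak of replicate 3. Nor did they reach the highest pileups on other sequences, 188, 253 and 238 in replicates 1, 2 and 3. The gene table names another build than the lists and no scaffold, so classes were not made from it: the deep class was formed, as the plan provided for this case, from overlapping regions with a summit pileup over 400. Class medians of log2 values were compared within replicates. Exact sign flips over 3 replicates, whose two-sided p cannot fall below 0.25, are given for width only, since the other values are of the summits that formed the classes. Every peak of the scaffold is reported. Members and tests were chosen with earlier results of these data known. The software was scipy 1.17.1, numpy 2.4.6, pandas 2.3.3 and matplotlib 3.10.9 under Python 3.11.15.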

Additional observations from a re-analysis of the deposited data

How the results depend on the processing

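Alternatives were a −log10 q of at least 5, class by any overlap, means for medians, leaving out each replicate and, chosen after the data were seen, classes by the RefSeq 45S gene and leaving out the flanking region of all 3 replicates, without which replicate 3 has no flanking peak. The classes were formed by depth, so the direction of the pileup and of the expected level says nothing about stability. Without 1 replicate the log2 difference in fold was -3.52 to -1.86. The width difference became 0.86 with classes by the RefSeq 45S gene, where the short second-unit peaks join the flanking class. Peaks per replicate averaged 4.33 at a −log10 q of 5 or more and 1.33 at a fold of 5 or more, and 7 to 13 without 1 replicate. Regions of all 3 replicates numbered 0 where summits had to lie within 100 bp, 2 at a −log10 q of 5 or more, and regions of both others 3 to 6 without 1 replicate. No paired analysis was possible because the inputs have no peak list here, as far as immunoprecipitate against input is concerned; deep and flanking peaks were compared within replicates. Pileups of 4 to 14 fragments limit what single flanking peaks show.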
